A study of Mus musculus with 20 samples.

Results

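The genes described here process antigens and present them on major histocompatibility complex (MHC) molecules: B2m, Tap1, Tap2, Tapbp, Psmb8, Psmb9, Psmb10, Cd74, H2-Aa and H2-Ab1. For each gene the probe sets annotated to it alone were collected, and the brightest of them, by its mean on the 20 arrays, gave the gene's level. By that rule 7 of the 10 genes had a value, out of 17097 genes in all. The levels of B2m, Tap1 and Tap2 were not analysed here.

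The cells were dermal fibroblasts sorted from female mice, and the RNA of each mouse went on 1 Affymetrix array, with 5 mice per group. Old CR mice, 9 months of age at the start, ate a normal diet for 2 months and were then held under 30% caloric restriction for 7 months. Old CR-ND mice of the same starting age had 30% caloric restriction for 7 months and then a normal diet for 2 months. Old ND mice of that starting age ate the normal diet freely for 9 months, and all old mice were killed at 18 months of age. Young ND mice were 4 weeks old and had 4 weeks of the normal diet. The labels name no strain, allele or transgene. Per the labels, collagenase released cells from skin without subdermis, and the sort kept those with Pdgfra and CD34 that lacked EpCam, CD45, CD31, CD117 and CD24. RNA of 10000 cells per mouse was amplified over 20 cycles, so every level below is a relative log2 brightness of amplified material.

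MHC class I molecules sit on nearly all nucleated cells and show peptides cut from the cell's own proteins. The peptides are cut by the proteasome, carried into the endoplasmic reticulum by the TAP transporter and fitted into the class I groove with the help of tapasin. MHC class II molecules are made mainly by dendritic cells, macrophages and B cells, where the invariant chain guides them to endosomes to collect peptides of engulfed proteins. Interferon gamma can induce both sets of genes in fibroblasts, class II through the coactivator Ciita and class I through its relative Nlrc5.

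All arrays had medians between 5.27 and 5.34 on the log2 scale, and the median gene level was 5.88, with quartiles at 4.54 and 7.41. The array numbers in the titles fell into 2 runs, 13 arrays in the first and 7 in the second. The second run held replicates 4 and 5 of Old CR-ND, Old ND and Young ND and replicate 5 of Old CR. What the runs stand for is not stated. With the groups held fixed, second-run arrays were higher in H2-Ab1 by 0.73 ± 0.16 (limma's SE, adjusted p = 0.00317) and in H2-Aa by 0.38 ± 0.09 (adjusted p = 0.00732), while no other member passed the threshold of adjusted p 0.05 for the run. Several results are therefore given with the run as a block, within each run or both. The 10 fibroblast markers (among them Cd34 and Col1a1) averaged between 10.57 and 10.83 on each array, while Pdgfra, which the sort selected for, lay between 5.27 and 6.54, near the median gene level. Ptprc, which encodes the CD45 used to sort leukocytes out, lay between 3.13 and 3.42 in all groups, below the lower quartile of gene levels.

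The class II members had the widest differences between Old CR and the other old groups on the log2 scale. Cd74, the invariant chain, fell under caloric restriction, and H2-Aa and H2-Ab1, the alpha and beta chains of the I-A molecule, had lower Old CR means without passing the test. H2-Ab1 had the widest difference of all members, with an Old CR mean 2.04-fold below that of Old ND. In Old CR-ND, which had 2 months of normal diet after restriction, the means of these 3 genes lay within 0.15 log2 units of the Old ND means. No array shows the Old CR-ND mice at the end of their restriction, so a fall and return in them was not observed.

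The class II genes share promoter elements known as the X and Y boxes, which hold the complex that recruits Ciita. The stretches below are the 150 bases before the annotated start of H2-Aa and of 3 genes to set beside it: H2-Eb1, the beta chain of the I-E molecule; H2-DMb1, a chain of the peptide exchange factor H2-DM; and Psmb9, a class I pathway member. They were read from RefSeq on GRCm38.p6, each 5′ to 3′ on its gene's strand. Capitals mark TGATTGG, a Y box core, and GATGATG, an X box core.
H2-Aa, chr17:34287824-34287973, minus strand: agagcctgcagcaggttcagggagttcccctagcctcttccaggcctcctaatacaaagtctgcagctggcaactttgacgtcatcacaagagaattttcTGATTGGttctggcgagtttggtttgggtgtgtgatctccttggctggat
H2-Eb1, chr17:34305717-34305866, plus strand: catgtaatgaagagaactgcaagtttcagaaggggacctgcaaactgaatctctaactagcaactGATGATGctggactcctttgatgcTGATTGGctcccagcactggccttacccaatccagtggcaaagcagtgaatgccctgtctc
H2-DMb1, chr17:34153041-34153190, plus strand: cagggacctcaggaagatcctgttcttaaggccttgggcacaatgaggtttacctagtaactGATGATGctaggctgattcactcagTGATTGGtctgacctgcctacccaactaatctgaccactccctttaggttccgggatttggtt
Psmb9, chr17:34187331-34187480, minus strand: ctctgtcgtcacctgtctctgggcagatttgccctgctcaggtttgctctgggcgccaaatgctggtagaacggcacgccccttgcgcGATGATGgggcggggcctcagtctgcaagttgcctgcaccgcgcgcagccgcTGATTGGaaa
None of these stretches overlaps another annotated gene. TGATTGG began 50 bases before the start in H2-Aa, 61 in H2-Eb1, 63 in H2-DMb1 and 10 in Psmb9. GATGATG began 85 bases before the start in H2-Eb1, 88 in H2-DMb1 and 62 in Psmb9, while these exact letters did not occur in the H2-Aa window. No other spelling of an X box was searched for. The cores lay farther apart in Psmb9 than in H2-Eb1 and H2-DMb1, so the Psmb9 letters do not have the same arrangement. Over 32851 promoter windows of 250 bases before the start, searched on both strands, 7.23% held TGATTGG, 2.92% held GATGATG and 0.201% held both. The promoter table also held Psmb8, Psmb10, Tapbp, B2m and Tap1. Psmb8 had 1 match to TTCNNNGAA, the core of a gamma activated site, 97 bases before its start, against 7.02% of all windows. H2-DMb2, the other H2-DM beta chain, held both cores, and H2-DMa, the alpha chain, held neither at either of its 2 annotated starts. Neither Psmb10 nor Tapbp matched these 3 motifs or GAAANNGAA, an interferon response core found in 7.13% of windows. B2m had 1 match to GAAANNGAA, 139 bases before its start, and none to the other motifs. Tap1 held TGATTGG 222 bases and GATGATG 170 bases before its start, both on the strand opposite to Tap1. These are the same bases as those marked for Psmb9, so the letters do not belong to Psmb9 alone. The motif letters were chosen after the sequences had been seen, and a match describes the letters, not a bound site.

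Cd74 chaperones new class II chains and blocks their groove until they reach endosomes. Its log2 levels were 6.46, 6.39, 6.09, 6.08 and 6.64 in Old CR, 7.03, 6.55, 7.12, 6.94 and 6.74 in Old CR-ND, 6.85, 6.87, 6.50, 7.24 and 7.26 in Old ND, and 6.21, 6.54, 6.44, 6.45 and 6.70 in Young ND. Every Old CR array but 1 lay below all Old ND arrays, and the ranges of Old CR and Young ND overlapped widely. The means were 6.33 ± 0.24 in Old CR, 6.88 ± 0.23 in Old CR-ND, 6.94 ± 0.32 in Old ND and 6.47 ± 0.18 in Young ND (SD, n = 5 each). In the order of means, Old ND and Old CR-ND did not pass the test of their difference, nor did Young ND and Old CR.

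H2-Aa encodes the alpha chain of I-A. Its log2 levels were 7.45, 6.92, 7.46, 7.39 and 7.82 in Old CR, 7.84, 7.64, 8.00, 7.89 and 7.96 in Old CR-ND, 7.68, 7.77, 7.49, 8.18 and 8.51 in Old ND, and 7.39, 7.25, 7.50, 7.58 and 7.68 in Young ND. The 5 Old CR-ND arrays were the most alike, and the Old ND arrays spread over about 1 log2 unit, with both second-run arrays on top. The means were 7.41 ± 0.32 in Old CR, 7.87 ± 0.14 in Old CR-ND, 7.93 ± 0.41 in Old ND and 7.48 ± 0.17 in Young ND (SD, n = 5 each).

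H2-Ab1 encodes the beta chain that pairs with H2-Aa. Its log2 levels were 6.47, 6.86, 6.70, 6.69 and 7.59 in Old CR, 7.95, 7.53, 8.37, 8.31 and 8.06 in Old CR-ND, 7.82, 7.57, 6.99, 8.38 and 8.71 in Old ND, and 6.29, 7.30, 7.20, 7.48 and 7.87 in Young ND. The first 4 Old CR arrays lay below every Old ND and Old CR-ND array, and the fifth, from the second run, lay above 2 of the 5 Old ND arrays and 1 of the 5 Old CR-ND arrays. The means were 6.86 ± 0.43 in Old CR, 8.04 ± 0.34 in Old CR-ND, 7.89 ± 0.68 in Old ND and 7.23 ± 0.58 in Young ND (SD, n = 5 each).

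**Figure D1:**
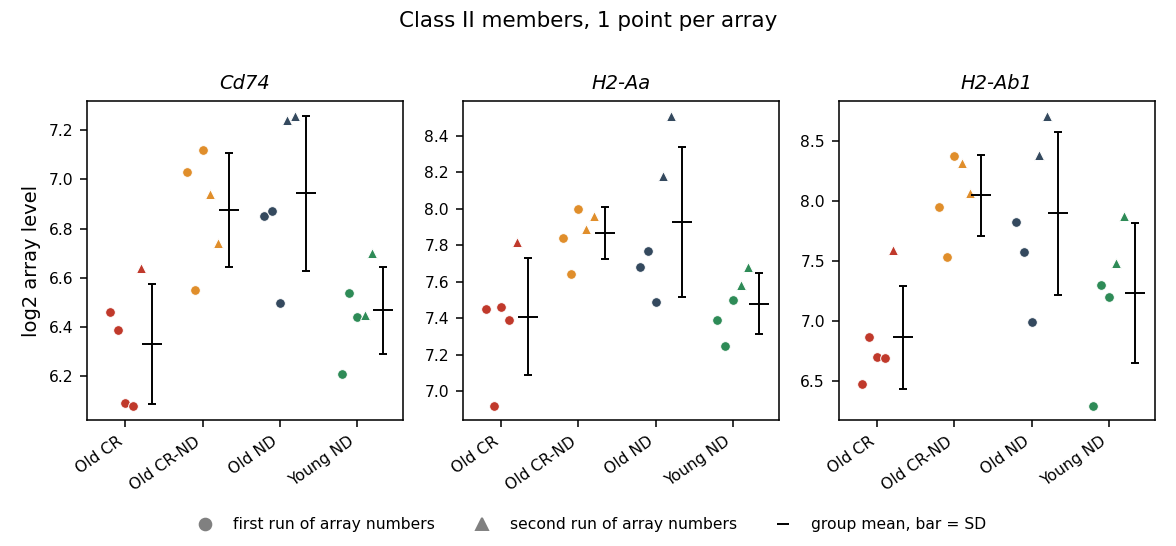
Log2 level of the 3 class II members on each array (vertical axes) by group, with the group mean and SD; 1 point is 1 mouse, and marker shapes separate the 2 runs of array numbers. Old CR points sit lowest or level with Young ND in all 3 genes, and no gene has fully separate groups in any comparison described.

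Old CR was set against Old ND to ask what 7 months of restriction did in old mice. Cd74 fell by 0.61 ± 0.15 on the log2 scale (limma's SE, adjusted p = 0.0276), a level 1.53-fold lower. It was the 1 member of 7 that passed, against 2.39% of all genes tested in either direction and 0.819% called lower. The H2-Ab1 difference was −1.03 ± 0.30 (adjusted p = 0.0740, 95% interval −1.65 to −0.41) and that of H2-Aa −0.52 ± 0.16 (adjusted p = 0.111, interval −0.86 to −0.17). With the run as a block all 3 class II genes passed, at −0.56 for Cd74 (adjusted p = 0.0165), −0.89 for H2-Ab1 (adjusted p = 0.0192) and −0.44 for H2-Aa (adjusted p = 0.0465), against 4.16% of all genes under that fit. Within the first run the differences were −0.49 for Cd74, −0.78 for H2-Ab1 and −0.34 for H2-Aa, and within the second, where Old CR had 1 array, −0.61, −0.96 and −0.53 in the same order. No member passed within either run alone. The Cd74 call was lost without Old CR replicate 2, 3 or 4 or Old ND replicate 4 or 5, with adjusted p between 0.0562 and 0.0898 in those fits, and with only these 2 groups in the fit (adjusted p = 0.0823).

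No class I member passed in the same comparison. The log2 differences of Old CR minus Old ND were 0.14 for Psmb8 (95% interval −0.09 to 0.36), 0.08 for Psmb9 (interval −0.12 to 0.29), 0.02 for Psmb10 (interval −0.26 to 0.29) and −0.06 for Tapbp (interval −0.21 to 0.09). Adjusted p of the 4 ran from 0.644 to 0.977. The median difference of all 7 members was −0.06, while the median over all genes lay within 0.01 of 0.

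Old CR-ND was compared with Old CR to ask what 2 months of normal diet did after restriction, although the 2 groups also differ in when the restriction fell. No member passed of 7, against 0.333% of all genes (57 at adjusted p under 0.05 and 1674 at an unadjusted p under 0.05 in limma). H2-Ab1 stood at 8.04 in Old CR-ND and 6.86 in Old CR, a difference of 1.18 ± 0.30 or 2.27-fold (adjusted p = 0.0921, 95% interval 0.56 to 1.80). The Cd74 difference was 0.54 ± 0.15 (adjusted p = 0.117) and that of H2-Aa 0.46 ± 0.16 (adjusted p = 0.309). With the run as a block H2-Ab1 alone passed, at 1.04 (adjusted p = 0.0240), against 0.702% of all genes under that fit. In the first run its means were 7.95 in Old CR-ND and 6.68 in Old CR. In the second they were closer, at 8.185 in Old CR-ND and 7.59 in Old CR, which had 1 array there. The lowest of the 5 Old CR-ND arrays, at 7.53, lay above 4 of the 5 Old CR arrays, and without Old CR replicate 5 the H2-Ab1 difference passed (adjusted p = 0.0443). All 4 class I differences were between 0.05 and 0.17.

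Old CR-ND and Old ND, which share the normal diet in the last 2 months, did not differ in any member past the threshold (0 of 7, against 0.00585% of all genes, 1 gene by limma's adjusted p and 868 at an unadjusted p under 0.05). The 95% interval of the difference was −0.37 to 0.23 for Cd74, −0.40 to 0.28 for H2-Aa and −0.47 to 0.77 for H2-Ab1. The H2-Ab1 interval was the widest, and it includes differences of up to 0.77. These 3 diet comparisons share the Old CR, Old CR-ND or Old ND arrays, and their values are not independent of each other.

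Old ND was compared with Young ND for the effect of age on the normal diet, with 1 member of 7 called, against 10.9% of all genes in either direction and 4.45% called higher. Cd74 rose by 0.48 ± 0.15 (adjusted p = 0.0372), a 1.39-fold higher level in Old ND. The difference was 0.67 ± 0.30 for H2-Ab1 (adjusted p = 0.178, 95% interval 0.05 to 1.29) and 0.45 ± 0.16 for H2-Aa (adjusted p = 0.0927, interval 0.10 to 0.79). With the run as a block 4 members passed, at adjusted p = 0.0135 for Cd74, 0.0156 for H2-Aa, 0.0327 for H2-Ab1 and 0.0312 for Psmb10, against 15% of all genes under that fit. The Cd74 call was lost without any 1 of Young ND replicates 1 to 4 or Old ND replicates 2, 4 or 5 (adjusted p from 0.0517 to 0.101), and also with array weights, with arrays centred on their medians or with only these 2 groups in the fit. Set against Young ND, Old CR differed by −0.14 in Cd74, −0.07 in H2-Aa and −0.37 in H2-Ab1, none past the threshold, and Old CR-ND by 0.41 in Cd74 (adjusted p = 0.104), 0.39 in H2-Aa (adjusted p = 0.192) and 0.82 in H2-Ab1 (adjusted p = 0.115). The 3 age comparisons share the Young ND arrays.

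All 4 measured class I members lay above the upper quartile of gene levels on every array. Psmb8, Psmb9 and Psmb10 are the catalytic subunits of the immunoproteasome, the form of the proteasome that interferon induces and that cuts peptides suited to class I. Tapbp encodes tapasin, which holds empty class I molecules to the TAP transporter. With all arrays, the brightest probe set and no block, Psmb10 was the 1 class I member that passed a comparison, being higher in Old CR and Old CR-ND than in Young ND.

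Psmb10 had log2 levels of 9.43, 9.38, 9.27, 9.46 and 9.22 in Old CR, 9.74, 9.48, 9.39, 9.18 and 9.40 in Old CR-ND, 9.27, 9.38, 9.04, 9.55 and 9.44 in Old ND, and 9.11, 9.15, 9.28, 8.57 and 8.59 in Young ND. Both second-run Young ND arrays lay below all other arrays, and the first-run Young ND arrays lay within or next to the old groups. Psmb10 rose by 0.41 ± 0.13 in Old CR over Young ND (limma, adjusted p = 0.0461, 1.33-fold) and by 0.50 ± 0.13 in Old CR-ND over Young ND (adjusted p = 0.0251, 1.41-fold). It was the 1 member of 7 called in both, against 12.7% of all genes in Old CR over Young ND (7.11% called higher) and 7.04% in Old CR-ND over Young ND (3.22% called higher). Old ND over Young ND differed by 0.40 ± 0.13 (adjusted p = 0.0618). Both calls were lost without Young ND replicate 4 or 5, the 2 low arrays. Without 1 of these, or of Old CR replicates 1 to 4, the first call had adjusted p from 0.0625 to 0.142, and without 1 of these, or of Old CR-ND replicates 1 or 2, the second had 0.0528 to 0.0775. The Old CR call was also lost with arrays centred on their medians (adjusted p = 0.0538), with array weights (0.05998), with only the 2 groups in the fit (0.0716) and within either run (0.281 and 0.0582). The Old CR-ND call was also lost with only the 2 groups (0.0748) and within the first run (0.0909).

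The age differences of the class I members are also given by run, since their values in the 2 runs lay far apart. For Psmb10 the Old ND minus Young ND difference was 0.05 in the first run, with 3 arrays per group, and 0.92 in the second, with 2 per group. For Psmb8 these were −0.13 and 0.54, for Psmb9 −0.14 and 0.43, and for Tapbp −0.20 and 0.23. A test of the difference between runs, added after the data had been seen, gave adjusted p = 0.131 for Psmb10, 0.204 for Psmb8, 0.325 for Tapbp and 0.328 for Psmb9, so none passed, against 0.0117% of all genes (2 genes). The unadjusted p of that test was 8.0e-05 for Psmb10, 0.00077 for Psmb8, 0.0040 for Tapbp and 0.0041 for Psmb9. For the class II genes it ran from 0.0573 to 0.411. The fit with the run as a block gives 1 difference for both runs, so its Psmb10 call does not show this spread. The Cd74, H2-Aa and H2-Ab1 differences were above 0 in both runs, at 0.34 and 0.68, 0.27 and 0.72, and 0.53 and 0.87.

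Psmb8 had log2 levels of 10.15, 10.01, 9.90, 9.97 and 10.11 in Old CR, 10.32, 10.03, 9.90, 10.10 and 10.11 in Old CR-ND, 9.75, 9.76, 9.59, 10.14 and 10.22 in Old ND, and 9.73, 9.85, 9.91, 9.72 and 9.57 in Young ND. Within Old ND the 2 second-run arrays stood above the other 3 by over 0.3, and the groups overlapped in every comparison. Its difference from Young ND was 0.27 ± 0.11 for Old CR (adjusted p = 0.113), 0.34 ± 0.11 for Old CR-ND (adjusted p = 0.0670) and 0.14 ± 0.11 for Old ND (adjusted p = 0.514). With the run as a block, Psmb8 and the 3 class II genes joined Psmb10 past the threshold in Old CR-ND against Young ND (5 of 7, against 10.3% of all genes under that fit), Psmb8 at adjusted p = 0.0449. Psmb8 also passed there with genes below the median level left out (adjusted p = 0.0494), after quantile normalization once more (0.0298) and with only the 2 groups (0.0417), and in Old CR against Young ND with only the 2 groups (0.0373).

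Psmb9 ranged from 7.94 to 8.35 in Old CR, 8.05 to 8.46 in Old CR-ND, 8.00 to 8.34 in Old ND and 7.86 to 8.20 in Young ND, and no comparison passed. Its means of 8.22, 8.27, 8.14 and 8.05, in the same order of groups, differed by at most 0.22. Tapbp ranged from 10.41 to 10.59 in Old CR, 10.58 to 10.76 in Old CR-ND, 10.37 to 10.72 in Old ND and 10.48 to 10.74 in Young ND. Its largest difference was 0.17 ± 0.07 in Old CR-ND over Old CR (adjusted p = 0.435).

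**Figure D2:**
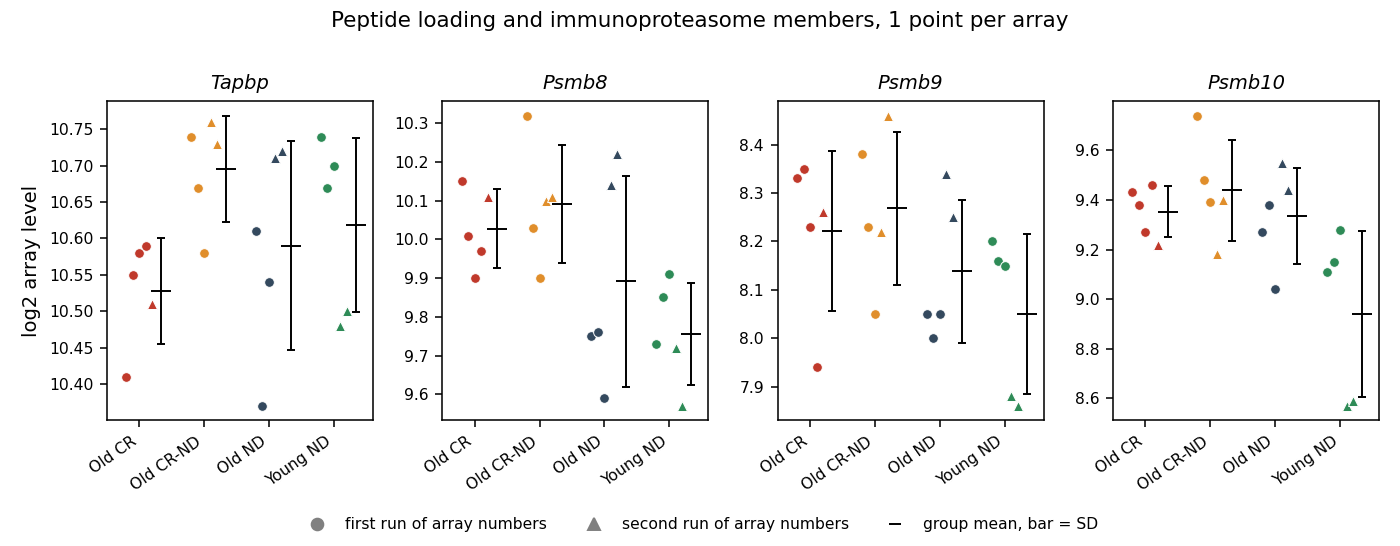
Log2 level of Tapbp, Psmb8, Psmb9 and Psmb10 on each array (vertical axes) by group, with the group mean and SD; 1 point is 1 mouse, and marker shapes separate the 2 runs of array numbers. The 2 second-run Young ND arrays are the lowest points of Psmb10, at 8.57 and 8.59, and the groups overlap in every gene.

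Asked whether a gene differed among the 4 groups at all, limma's F test called Cd74 (adjusted p = 0.0105), H2-Ab1 (adjusted p = 0.0222) and Psmb10 (adjusted p = 0.0470), 3 of 7 members against 12.9% of all genes. H2-Aa had adjusted p = 0.0612, Psmb8 0.130, Psmb9 0.414 and Tapbp 0.431. The plot of differences sets 4 comparisons side by side for each member.

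**Figure D3:**
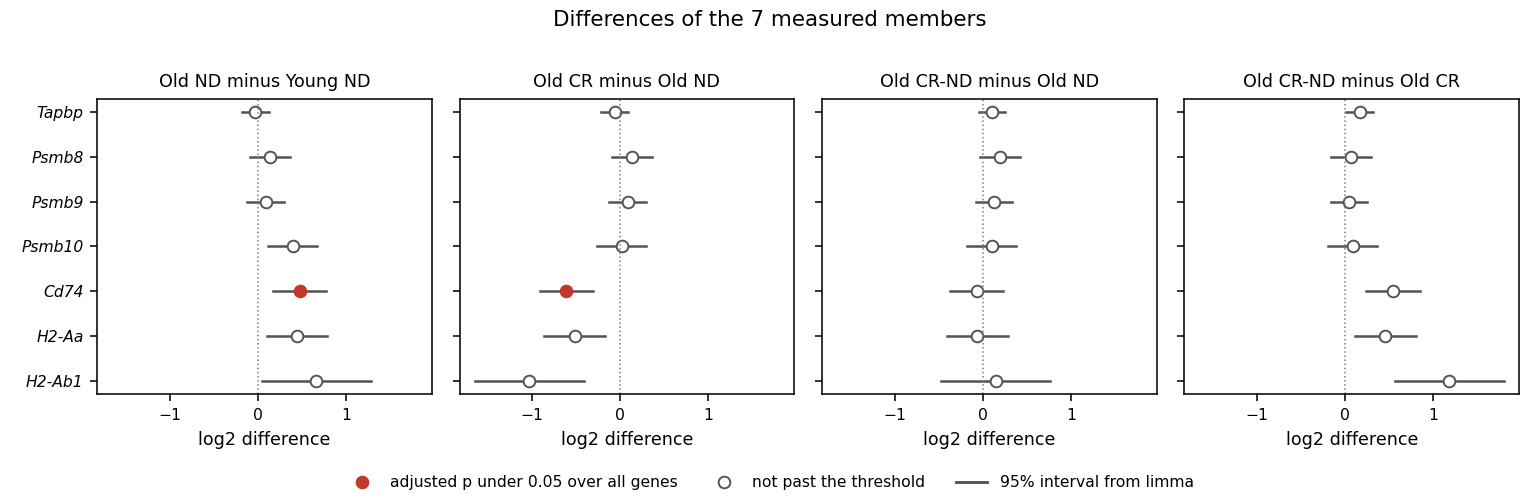
Log2 differences of the 7 measured members (rows) with 95% intervals (bars) in 4 comparisons (panels), with filled points for adjusted p under 0.05; the dotted line is 0. The class II intervals lie below 0 in Old CR minus Old ND. Those of the class II genes and Tapbp lie above 0 in Old CR-ND minus Old CR, and those of the class II genes and Psmb10 in Old ND minus Young ND.

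Several members had further probe sets, 15 in all, and these did not all give the same differences. The brightest probe sets of H2-Aa and H2-Ab1 have the suffixes x_at and s_at, which mark probes that may also match related genes. For Old CR minus Old ND the dimmer H2-Aa probe sets gave −0.34 and −0.52, and those of H2-Ab1 gave −0.09 and −0.24, so the H2-Ab1 difference was much wider on the brightest probe set. With the mean of each gene's probe sets, the H2-Ab1 difference was −0.46 in Old CR minus Old ND (adjusted p = 0.0561) and 0.61 in Old CR-ND minus Old CR (adjusted p = 0.0435). For Old ND minus Young ND, 1 dim H2-Aa probe set, with a mean of 4.86, gave −0.30 where the brightest gave 0.45. A further Psmb9 probe set passed in Old CR minus Young ND, at 0.40 (adjusted p = 0.0468), where the brightest gave 0.17. A dimmer H2-Ab1 probe set passed in Old CR-ND minus Young ND, at 0.30 (adjusted p = 0.0351), as did the mean of the H2-Ab1 probe sets, at 0.42 (adjusted p = 0.0436), where the brightest gave 0.82.

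Among the 16 measured genes of other class II chains, peptide exchange and lysosomal proteases, 2 fell in Old CR against Old ND and none rose, against 0.819% of all genes called lower, with a median difference of −0.04. These were H2-DMb1 (−0.37 ± 0.09, adjusted p = 0.0371) and H2-DMb2 (−0.41 ± 0.11, adjusted p = 0.0499), near-identical beta chains of the peptide exchange factor whose signals may not be separable. H2-DMb1 was dim, with means of 3.92 in Old CR and 4.29 in Old ND, below the lower quartile of genes. H2-Eb1, the beta chain whose promoter is printed above, ranged from 6.53 to 6.83 in Old CR, 6.90 to 7.40 in Old CR-ND, 6.52 to 7.47 in Old ND and 6.60 to 7.08 in Young ND. Its Old CR-ND arrays all lay above its Old CR arrays, which held for 0.994% of all genes, and the difference was 0.50 ± 0.15 (adjusted p = 0.166). No gene of the list passed in Old ND against Young ND, Old CR-ND against Old ND or Old CR-ND against Old CR.

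Of 16 measured regulators of MHC genes, Irf8 passed in both the age and the restriction comparison, which share the Old ND arrays. Irf8, an interferon regulatory factor of myeloid and B cells, ranged from 5.73 to 5.90 in Old CR, 6.03 to 6.50 in Old CR-ND, 6.09 to 6.81 in Old ND and 5.65 to 5.81 in Young ND. It fell by 0.59 ± 0.11 in Old CR against Old ND (adjusted p = 0.00726) and rose by 0.64 ± 0.11 in Old ND against Young ND (adjusted p = 0.000446). Irf8 was the only regulator of the 16 called in either. Of all genes, 2.39% were called in Old CR against Old ND and 10.9% in Old ND against Young ND. In both comparisons the groups did not overlap, as for 3.23% of all genes in Old CR against Old ND and 7.38% in Old ND against Young ND. Ciita averaged 5.33 in Old CR, 5.48 in Old CR-ND, 5.44 in Old ND and 5.32 in Young ND, with no comparison past the threshold. Nlrc5 averaged 6.21, 6.72, 6.57 and 5.94 in the same order, at adjusted p = 0.0539 in Old CR-ND against Young ND and 0.0987 in Old ND against Young ND. In Old CR against Young ND 2 of the 16 rose and 1 fell, against 12.7% of all genes called. Irf1 rose by 0.45 (adjusted p = 0.00366) and Irf9 by 0.73 (adjusted p = 0.00224). Nfyc, a subunit of the Y box binding factor, fell by 0.36 (adjusted p = 0.0476).

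The other class I pathway genes had calls against Young ND and none between old groups; whether the effects of age and diet differ was not tested. Of 13 measured class I and class I-like heavy chains, 3 rose in Old ND over Young ND and none fell, against 4.45% of all genes called higher: H2-M3 by 0.36 (adjusted p = 0.0181), H2-T23 by 0.29 (adjusted p = 0.0368) and Cd1d1, which presents lipids, by 0.24 (adjusted p = 0.0487). In Old CR over Young ND 2 of the 13 rose and none fell, against 7.11% of all genes called higher. H2-M3, which presents formylated peptides, was among them, at 0.59 (adjusted p = 0.000318). None of the 13 passed between old groups. Of 8 loading and trimming genes, 2 fell in Old ND against Young ND, where 6.49% of all genes were called lower: Tpp2, a cytosolic peptidase, by 0.42 (adjusted p = 0.0309), and Sec61a1, a translocon subunit, by 0.48 (adjusted p = 0.00793). Of 8 proteasome partners, 2 fell in the same comparison, Psmb5 by 0.31 (adjusted p = 0.0325) and Psmb7 by 0.40 (adjusted p = 0.0449), the constitutive subunits that Psmb8 and Psmb10 replace. Psme1, a chain of the interferon-inducible proteasome activator, rose by 0.51 in Old CR-ND over Young ND (adjusted p = 0.00189) and by 0.44 in Old CR over Young ND (adjusted p = 0.00407). In each of these 1 of the 8 partners rose and 1 fell. Of all genes, 7.04% were called in Old CR-ND over Young ND and 12.7% in Old CR over Young ND.

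Of 9 measured genes of interferon gamma signalling, none passed between old groups. In Old ND against Young ND 1 of the 9 rose and 1 fell, against 10.9% of all genes called. The kinase Jak2 rose by 0.41 (adjusted p = 0.0489) and the inhibitor Socs1 fell by 0.38 (adjusted p = 0.0140). Of 15 interferon gamma targets outside antigen presentation, 2 rose and 1 fell in that comparison, against 10.9% of all genes called. The GTPases Igtp and Iigp1 rose by 0.58 (adjusted p = 0.0373) and 0.64 (adjusted p = 0.0111), and Gbp4, another GTPase, fell by 0.84 (adjusted p = 0.000129). More of the 15 passed in Old CR-ND against Young ND, where 4 rose and 2 fell, against 7.04% of all genes called. For Old CR against Young ND 3 rose and 2 fell, against 12.7% of all genes called. In Old CR against Old ND 1 of the 15 passed, against 2.39% of all genes. This was Vcam1, an adhesion molecule, which fell by 1.28 ± 0.28 (adjusted p = 0.0199). Of 10 costimulatory and coinhibitory ligands, 1 rose and 2 fell in Old ND against Young ND, against 10.9% of all genes called. Tnfsf9 rose by 0.59 (adjusted p = 0.00203), Cd276 fell by 0.52 (adjusted p = 0.0276) and Tnfsf4 fell by 0.30 (adjusted p = 0.0240). None of the 10 passed between old groups.

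Class II genes are strongly expressed by leukocytes, so leukocyte markers are given beside them. The mean level of 8 general leukocyte markers ranged from 4.67 to 4.76 in Old CR, 4.72 to 4.85 in Old CR-ND, 4.70 to 4.95 in Old ND and 4.66 to 4.81 in Young ND. In Old CR minus Old ND none of the 8 passed, all 8 differences were at or below 0, and their median was −0.09; 3 of the 8 lay below the lower quartile of gene levels. The mean of 16 macrophage and dendritic cell markers ranged from 4.88 to 4.99 in Old CR, 4.94 to 5.17 in Old CR-ND, 4.93 to 5.16 in Old ND and 4.94 to 5.04 in Young ND. None of the 16 passed in Old CR minus Old ND, with 3 differences above 0 and a median of −0.06, and in Old CR-ND minus Old CR 15 of 16 were above 0, with a median of 0.09.

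Markers of single cell types ranged from dim to bright. Some lay above the median gene level on every array. Cd79a of B cells lay between 6.38 and 7.20, and Mfge8 of the Langerhans cell list between 9.11 and 9.82. Krt5 of keratinocytes lay between 7.60 and 10.49. Of the macrophage and dendritic cell list, Csf1r lay between 6.29 and 7.98 and Cd68 between 5.92 and 8.37. Adgre1 lay between 3.44 and 4.15, Ms4a1 of B cells between 3.27 and 3.69, Cd3e of T cells between 4.10 and 4.54 and Cd207 of Langerhans cells between 3.88 and 4.41 over all arrays, and Itgax between 5.46 and 5.70. In Old ND minus Young ND 10 of the 16 macrophage and dendritic cell markers were above 0, with a median of 0.02. Csf1r alone of them passed, at −1.20 (adjusted p = 1.41e-07), against 10.9% of all genes. Cd68 was at 0.94 (adjusted p = 0.0680), with means of 7.67 in Old ND and 6.73 in Young ND. Over the 20 arrays the class II mean had r = 0.61 with the leukocyte list and 0.31 with the macrophage and dendritic cell list, and within groups 0.42 and −0.11. Within groups it was 0.64 with the endothelial list, 0.60 with the Langerhans cell list (3 genes) and 0.46 with the keratinocyte list, and between −0.50 and 0.21 with the other 8 lists. In Old CR-ND minus Old CR all 8 keratinocyte markers were above 0, with a median of 0.27, and none passed. In Old CR minus Old ND 6 of the 8 were above 0, with a median of 0.11. In Old CR-ND minus Old ND all 8 were above 0, with a median of 0.47. None of the 8 passed in either of these. For Old CR minus Old ND 5 of the 9 endothelial markers were above 0, with a median of 0.034, and 2 of the 3 Langerhans cell markers, with a median of 0.028. For Old CR-ND minus Old CR 4 of the 9 were above 0, with a median of −0.01, and 3 of the 3, with a median of 0.038. No marker of these 2 lists passed in either comparison. The points share arrays, groups and runs, and no p is given. The part of such cells in the class II differences was not tested, and in sorted bulk RNA fewer cells of a type and less RNA per cell cannot be told apart.

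**Figure D4:**
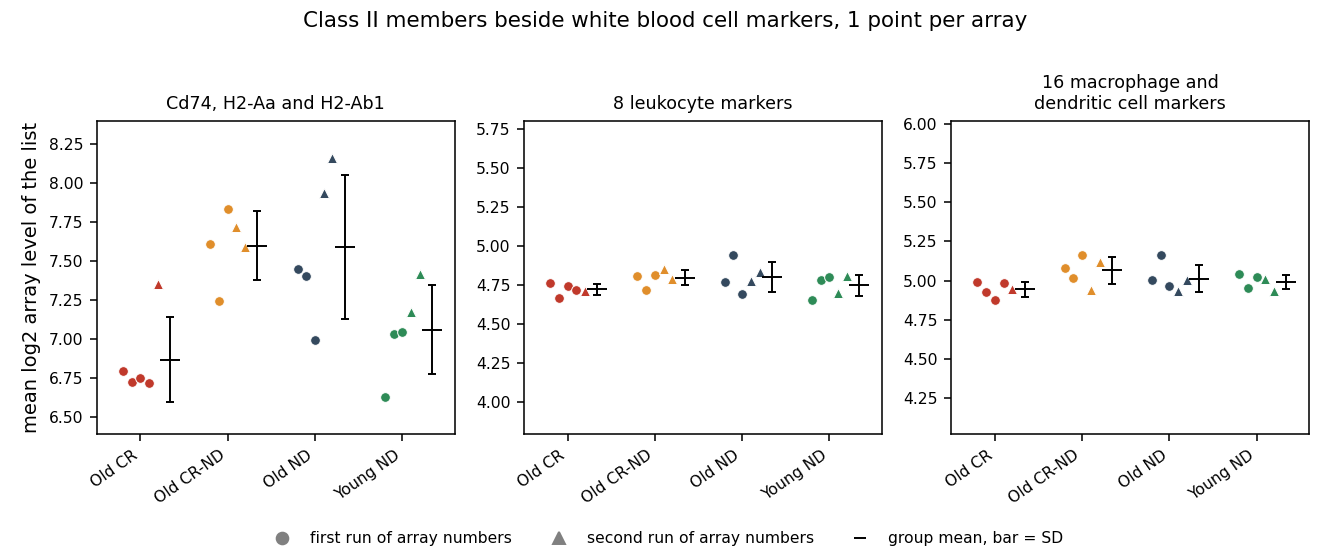
Levels on each array by group (horizontal axes): the class II members beside the leukocyte and the macrophage and dendritic cell marker lists, in log2 units (vertical axes); 1 point is 1 mouse. The leukocyte list spans 4.66 to 4.95 over all arrays and the macrophage and dendritic cell list 4.88 to 5.17.

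Within groups, the class II genes varied together, and so did the immunoproteasome genes. With group means removed, Pearson's r over 20 arrays was 0.84 for Cd74 with H2-Ab1, 0.73 for H2-Aa with H2-Ab1 and 0.65 for Cd74 with H2-Aa. It was 0.68 for Psmb8 with Psmb9, 0.63 for Psmb8 with Psmb10 and 0.55 for Psmb9 with Psmb10. With the run removed too, r was 0.79, 0.45 and 0.47 for the 3 class II pairs and 0.69, 0.90 and 0.67 for the 3 immunoproteasome pairs. Between these sets r ran from −0.16 for Psmb10 with H2-Ab1 to 0.56 for Psmb8 with Cd74, and with the run removed too it reached 0.49 for that pair and 0.46 for Psmb10 with H2-Aa. These are as high as the lowest pairs within the sets, so the sets were not clearly apart. These values describe the same arrays, which share the sort, the amplification and the run, and carry no p.

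**Figure D5:**
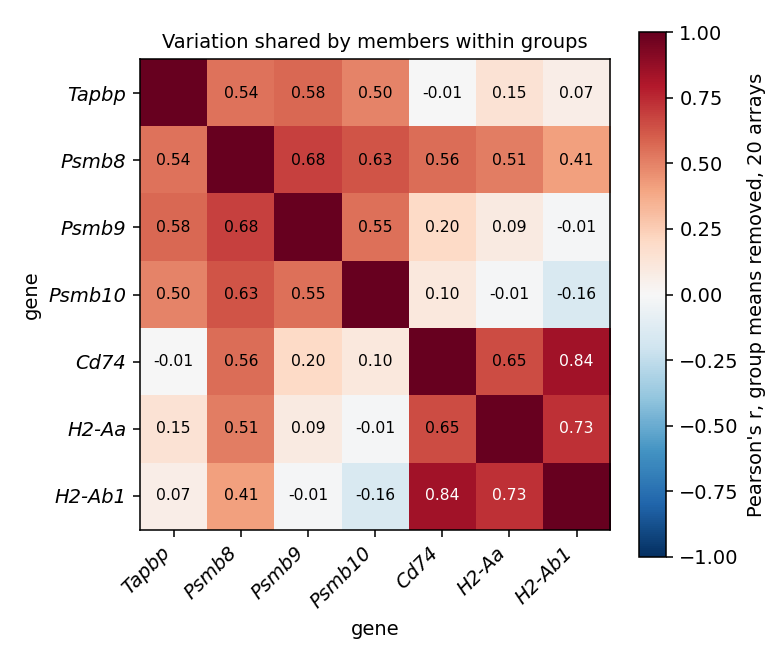
Pearson's r between members over 20 arrays with group means removed (colour scale), genes on both axes. The class II pairs run from 0.65 to 0.84 and the immunoproteasome pairs from 0.55 to 0.68, while Psmb8 with Cd74 (0.56) and Tapbp with Psmb9 (0.58) reach the lower of these.

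Among 8541 other genes above the median level, those whose levels over the 20 arrays were most like the mean of the scaled class II members were H2-Eb1 (r = 0.85), Nudt21 (0.81), AW112010 (0.80), Eef1d (0.79) and Tuba1b (0.77). For the 4 measured class I members they were Erap1 (0.89), the peptidase that trims class I peptides in the endoplasmic reticulum, then Slfn5 (0.83), Irgm2 (0.79), Oasl2 (0.78) and Mx2 (0.74). H2-Eb1, Erap1 and Irgm2 were also on the related lists described above.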

How the data were processed

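The deposited values are on a log2 scale, 1 per probe set and array. Per the submitters' processing notes the authors used RMA and affy, with versions not given in the sources used here. The values lie between 2.71 and 13.46. Of 45141 probe sets, 28898 name 1 gene, and the 551 naming several and 15692 naming none were left out. Symbols were updated through RefSeq on GRCm38.p6, which matched 28689, and the brightest probe set per gene was kept (17097 genes). Arrays have no read depth, and their number limits precision.

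A limma 3.58.1 model (R 4.3.3; lmFit, then eBayes) gave each group its own mean over all 20 arrays and had no covariate; its residual degrees of freedom were 16 and its prior ones 4.19. Tests were two-sided, with Benjamini-Hochberg adjustment over all genes in each comparison and a threshold of 0.05. The labels call the 5 arrays per group biological replicates, and no array pair was identical (0 pairs). The pipeline was tested on simulated data. The members, lists and tests were chosen with earlier results of these data known. All members are named; from a related list up to 6 genes past the threshold per comparison and up to 3 others in list order may be named. Alternatives were filters on dim genes, other probe set rules, another normalization or centring, array weights, trend and robust eBayes, only 2 groups, runs, each array left out, and other thresholds. The run's interaction with age was added after the data had been seen. Promoter sequences are from RefSeq.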

Additional observations from a re-analysis of the deposited data

How the results depend on the processing

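No paired analysis was possible because the labels give the groups no shared replicate numbers. Counts follow as genes or members past the threshold, for A (Old ND minus Young ND), B (Old CR minus Old ND), C (Old CR-ND minus Old ND), D (Old CR-ND minus Old CR), E (Old CR minus Young ND) and F (Old CR-ND minus Young ND). With genes below the median left out, members were 2 in A, B and F and genes 3 in C; below the lower quartile, genes were 2 in C. With the mean of probe sets, members were 1 in D and 2 in F. With every probe set, 3078 were called in A, 615 in B, 11 in C, 3538 in E and 1891 in F. Quantile normalization once more gave 2 members in A and F, 2 genes in C, Tapbp 0.0673 in A and Psmb10 −0.0359 in B. Centring on medians gave 0 members in A and E. Array weights gave 0 members in A and E, 2 in D, and 235 genes in D. With only the 2 groups, members were 0 in A and B, 1 in D and 2 in F (Psmb8 and H2-Aa in place of Psmb10, and in E Psmb8 in place of Psmb10), and genes 191 in B and 0 in C. With the run as a block, members were 4 in A, 3 in B, 1 in D and 5 in F, genes 711 in B, 8 in C and 120 in D, Psmb10 −0.0217 in B and H2-Aa 0.0038 in E. In run 1 alone, members were 0 in A, B and E, genes 795 in B, 22 in C, 10 in D and 795 in F, and the differences were Psmb8 −0.13 and Psmb9 −0.137 in A, Tapbp 0.0258 in B, Cd74 0.16 and H2-Aa 0.18 in C, and Tapbp −0.04 in F. In run 2 alone, members were 5 in A and 0 in B and E, genes 1049 in A, 1 in B, 0 in C, 1 in D, 576 in E and 621 in F, and the differences were Tapbp 0.225 in A; Psmb8 −0.07, Psmb9 −0.035 and Psmb10 −0.275 in B; Psmb8 −0.075, Psmb10 −0.205 and H2-Ab1 −0.36 in C; Psmb8 −0.005 in D; and Tapbp 0.02, Cd74 0.065 and H2-Aa 0.19 in E. At adjusted p under 0.01, genes were 1029 in A, 98 in B, 19 in D, 1225 in E and 593 in F, and members 0 in A, B, E and F and by the test over all 4 groups. At 0.1, members were 3 in A, 2 in B, 1 in D and 2 in F, and genes 725 in B, 3 in C and 149 in D. The causes were not tested. Leaving out 1 array at a time gave 1454 to 1847 genes in A, 201 to 498 in B, 1 to 5 in C, 17 to 110 in D, 1719 to 2171 in E and 790 to 1187 in F, and 0 to 3 members in A and B, 0 in C, 0 to 1 in D, E and F, and 1 to 4 by the test over all 4 groups. Differences that changed sign in those fits spanned −0.0625 to 0.027 for Tapbp in A, −0.058 to 0.0695 for Psmb10 in B, −0.179 to 0.0135 for Cd74, −0.169 to 0.086 for H2-Aa and −0.076 to 0.354 for H2-Ab1 in C, −0.0245 to 0.1005 for Psmb9 in D, and −0.175 to 0.05 for H2-Aa in E. Of 924 alternative member values, 36 changed sign, none of them past the threshold before or after (0 of 36). An array cannot tell related H2 genes apart where probes match both.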
